A study of Mus musculus with 6 samples.

Results

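The respiratory chain subunits are the structural proteins of the 5 protein complexes of the inner mitochondrial membrane that pass electrons from metabolic fuel to oxygen and use the energy to make ATP. They were taken from the gene count table as the protein coding rows whose symbol names a mitochondrially encoded subunit (mt-Nd, mt-Co, mt-Atp or mt-Cytb) or a nuclear encoded one (Nduf followed by a subunit letter and number, Sdha, Sdhb, Sdhc, Sdhd, Uqcr, Cox4 to Cox8, or Atp5). The rule found 95 of the 19288 genes in the table, 13 mitochondrially and 82 nuclear encoded. The nuclear rows comprised 36 for complex I, 4 for complex II, 8 for complex III, 16 for complex IV and 18 for complex V, and the mitochondrial rows 7 for complex I, 1 for complex III, 3 for complex IV and 2 for complex V. Grouping followed the symbol, so Ndufa4, a protein now known as a component of complex IV, stands with complex I. Atp5o has 2 gene IDs, and the exons of the less counted one overlap, over their whole length, exons of Donson or of the other Atp5o ID on the same strand, so its separate counts are uncertain.

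RNA was sequenced from LLC1 tumours, grown under the skin from an established mouse lung carcinoma line. Every host was an outcross animal from a C57BL/6 dam (written CB57BL/6 in the labels) and an FVB sire carrying the beta-hCG transgene, whose promoter is not given in the sources used here. There were 2 libraries in each of 3 groups. The progesterone tumours came from hosts that had been ovariectomized and supplemented with progesterone for 28 days. The vehicle tumours came from ovariectomized hosts supplemented with vehicle for the same 28 days. The transgenic tumours came from hosts for which neither ovariectomy nor supplementation is labelled. All were taken 30 days after implantation. The labels do not say that the 2 libraries of a group came from separate animals, so each p-value measures the spread between these libraries, which may be technical. A tumour library mixes RNA of the implanted cells with that of host cells, and fewer cells of a type cannot be told apart from less RNA per cell.

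Complexes I and II take electrons from NADH and succinate, complex III passes them to cytochrome c, complex IV hands them to oxygen, and complex V, the ATP synthase, is driven by the proton gradient that complexes I, III and IV build. The mitochondrial genome encodes a few core subunits of each of these except complex II, which is nuclear encoded throughout. The mitochondrial messages are cut from long transcripts of both strands of the circular genome, with mt-Nd6 alone among the subunits on the opposite strand, and their levels therefore depend on processing and stability as well as on transcription. Nuclear subunits are made in the cytosol and imported, and their genes are known targets of the factors NRF1, GABPA and YY1. Tumours are known to vary widely in their use of this chain.

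Library totals ran from 19526775 to 30083925 counts, and TMM scaling factors lay between 0.966 and 1.05, so no library was rescaled strongly. The 2 libraries of a group differed far beyond counting noise, and chi-square divided by its degrees of freedom was 65.3 for progesterone, 38.8 for vehicle and 98.1 for transgenic tumours. The lung epithelial genes Sftpc and Scgb1a1 were at no more than 0.0827 CPM (counts scaled to library size) in any library. The epithelial gene Epcam was at no more than 0.222 CPM. The keratin Krt18 ranged from 125 to 370 CPM and vimentin (Vim) from 3667 to 4532 CPM. Of the 13632 genes kept by the filter on low counts, edgeR's quasi-likelihood test called 0.0% in each of the 3 comparisons (Benjamini-Hochberg, adjusted p under 0.05). The smallest adjusted p by edgeR was 0.587 for vehicle against transgenic, 0.668 for progesterone against vehicle and 0.798 for progesterone against transgenic tumours. An unadjusted p under 0.05 was reached by 759, 721 and 718 genes in those comparisons, DESeq2 called 63, 77 and 47, and limma-voom called 0 in each. No respiratory chain subunit was therefore called by the main test in any comparison, and the values that follow are given with that limit.

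All 13 mitochondrial genes and 78 of the 82 nuclear ones passed the filter. Ndufs3, a core subunit of complex I, did not pass, with 2 counts in 1 vehicle library and none in the other 5. The muscle form Cox6a2 and the testis forms Cox7b2 and Cox8c did not pass either, at no more than 0.271 CPM. Among those that passed, the levels per exon length of the nuclear subunits (RPKM, CPM divided by exon length, mean of 6 libraries) had medians of 30.6 for complex I, 49.5 for complex II, 54.5 for complex III, 61.3 for complex IV and 36.6 for complex V. The highest in each complex were Ndufa2 of complex I at 88.1 RPKM, Sdhd of complex II at 105 RPKM, Uqcr10 of complex III at 91.9 RPKM, Cox8a of complex IV at 254 RPKM and Atp5b, the catalytic beta subunit of complex V, at 285 RPKM. The lowest were Ndufb2 at 1.42 RPKM, Sdhc at 36.8 RPKM, Uqcrc1 at 2.42 RPKM, Cox6b2 at 0.378 RPKM and the second ID of Atp5o at 1.75 RPKM. Exon length merges all annotated exons of a gene, and was 5628 bases for Ndufb2 against 419 for Ndufa1. These rankings and medians therefore depend in part on the exons annotated.

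Subunits that are built into a complex in fixed proportion did not have like counted levels. Uqcrc1 and Uqcrc2 form the paired core proteins of complex III, and the table held 2.42 RPKM for Uqcrc1 against 40.0 RPKM for Uqcrc2. The alpha subunit of the ATP synthase, Atp5a1, stood at 9.18 RPKM, against 285 RPKM for its partner Atp5b. Ndufs3 was at 0.0081 RPKM, against 47.1 RPKM for Ndufv1, another core subunit of complex I. The cause of these low counts was not tested, and values of Uqcrc1, Atp5a1 and Ndufs3 are given as counted.

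The mitochondrial genes were spread still more widely on the same scale. mt-Co1, the catalytic subunit of complex IV, was the highest of all subunits at 4322 RPKM, followed by mt-Cytb, the haem-bearing core of complex III, at 2415 RPKM and mt-Nd1 at 1637 RPKM. mt-Nd2, mt-Nd4 and mt-Nd5, membrane subunits of complex I, were at 758, 602 and 544 RPKM. mt-Co2 and mt-Co3, which complete the core of complex IV, were at 109 and 73.8 RPKM, and mt-Atp6, mt-Nd3 and mt-Nd4l were at 69.4, 14.8 and 6.57 RPKM. mt-Nd6 was at 77.1 RPKM and mt-Atp8 at 3.79 RPKM.

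Low counts of several mitochondrial genes went with identity to nuclear genes. Nuclear chromosomes carry old insertions of mitochondrial DNA, and a read that matches both places has no single origin. Of all 50-base windows of the gene's transcript, 100% of mt-Co2, 99.9% of mt-Co3, 99.5% of mt-Atp6, 98.8% of mt-Nd4l and 98.0% of mt-Nd3 occur unchanged in the transcripts of another gene in GENCODE vM21 (GRCm38). For mt-Nd4 the share was 62.2%, for mt-Co1 51.1%, for mt-Nd2 8.19% and for mt-Nd5 7.61%, and mt-Nd1, mt-Nd6, mt-Cytb and mt-Atp8 shared none. Only annotated transcripts were searched, so a nuclear copy outside an annotated gene would not be seen. mt-Atp8 lies between mt-Co2 and mt-Co3, whose copies lie close together on chr1, and a copy of it there was not looked for. The pseudogene Gm28661 (chr1:24614885-24615565, minus strand) matches mt-Co2 (chrM:7013-7696, plus strand) at 681 of 681 aligned bases, Gm28437 (chr1:24613189-24613971, minus strand) matches mt-Co3 at 783 of 783, and Gm28439 (chr1:24611535-24612410, minus strand) matches the first 876 of the 1378 bases of mt-Nd4. The first 60 bases of mt-Co2 and of Gm28661 are shown in the direction of each transcript, from the GENCODE vM21 transcripts, to let the identity be seen; a base that differed would be in capitals, and there is none.
mt-Co2: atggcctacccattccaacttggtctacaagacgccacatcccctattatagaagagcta
Gm28661: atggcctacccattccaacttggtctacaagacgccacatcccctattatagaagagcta
How the counting treated reads with several matching places is not given in the sources used here, so the levels of the 5 genes with over 90% shared windows are uncertain, and those of mt-Nd4 and mt-Co1 rest in part on their unshared bases.

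**Figure D1:**
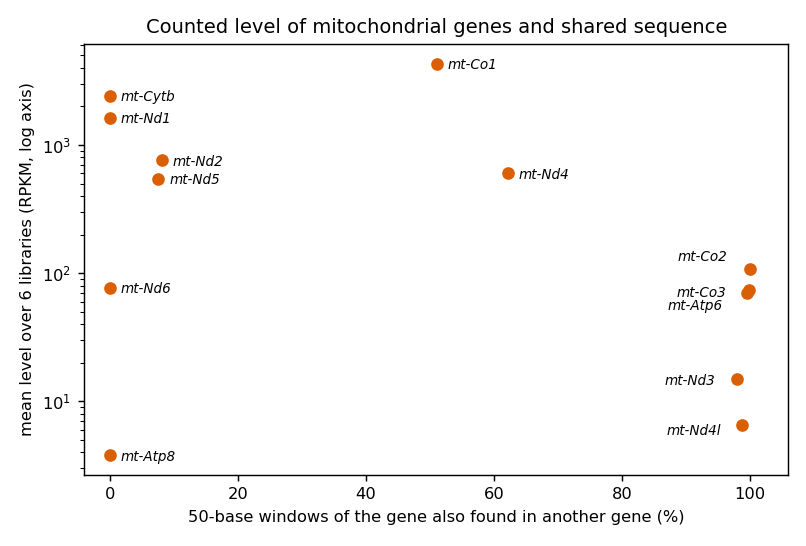
Mean counted level of the 13 mitochondrially encoded subunits over 6 libraries (RPKM, log axis) against the share of their 50-base windows that also occur in another gene (percent). The 5 genes with over 90% of windows shared lie at or below 109 RPKM, and mt-Co1 at 51.1% shared has the highest level at 4322 RPKM. mt-Nd6 and mt-Atp8 are low with no window found in an annotated transcript of another gene.

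In the vehicle tumours, 6 mitochondrial messages stood below both other groups in every library, while mt-Co1, the most abundant message, differed by at most 0.12 on the log2 scale between groups. mt-Nd1, a core membrane subunit of complex I, had 1406 and 1788 CPM in progesterone tumours, 1236 and 1132 CPM in vehicle tumours and 1916 and 1924 CPM in transgenic tumours. mt-Nd2, a neighbouring membrane subunit, had 785 and 934 CPM in progesterone tumours, 518 and 571 CPM in vehicle tumours and 863 and 1050 CPM in transgenic tumours. For both genes every vehicle library was below every library of the other groups, and the transgenic libraries were the highest on average. mt-Nd4, one of the proton-pumping subunits, had 893 and 991 CPM in progesterone tumours, 613 and 637 CPM in vehicle tumours and 926 and 916 CPM in transgenic tumours. mt-Nd5, the largest of the pumping subunits, had 960 and 1270 CPM in progesterone tumours, 788 and 725 CPM in vehicle tumours and 1054 and 1160 CPM in transgenic tumours. Here the progesterone and transgenic libraries lay among each other and the vehicle libraries below them. mt-Cytb had 3008 and 3180 CPM in progesterone tumours, 2149 and 2171 CPM in vehicle tumours and 2908 and 3162 CPM in transgenic tumours. mt-Nd6, the one subunit read from the opposite strand, had 50.03 and 42.3 CPM in progesterone tumours, 27.3 and 33.4 CPM in vehicle tumours and 46.6 and 40.3 CPM in transgenic tumours. Both genes showed the same order, with the vehicle libraries lowest. The strand setting of the counting is not stated, so the mt-Nd6 counts could include RNA of the other strand. mt-Co1 had 6824 and 7246 CPM in progesterone tumours, 6629 and 6397 CPM in vehicle tumours and 6306 and 6664 CPM in transgenic tumours, so its vehicle and transgenic libraries overlapped and both progesterone libraries were above them.

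Of all genes tested, 7.33% had both vehicle libraries below the other 4 and 6.87% had both above. Among the mitochondrial genes 6 of 13 were below and 0 above, and among the nuclear subunits 10 of 78 were below and 1 was above. This measure places the same 2 vehicle libraries on one side of both other groups, so it does not count as separate evidence from each comparison.

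**Figure D2:**
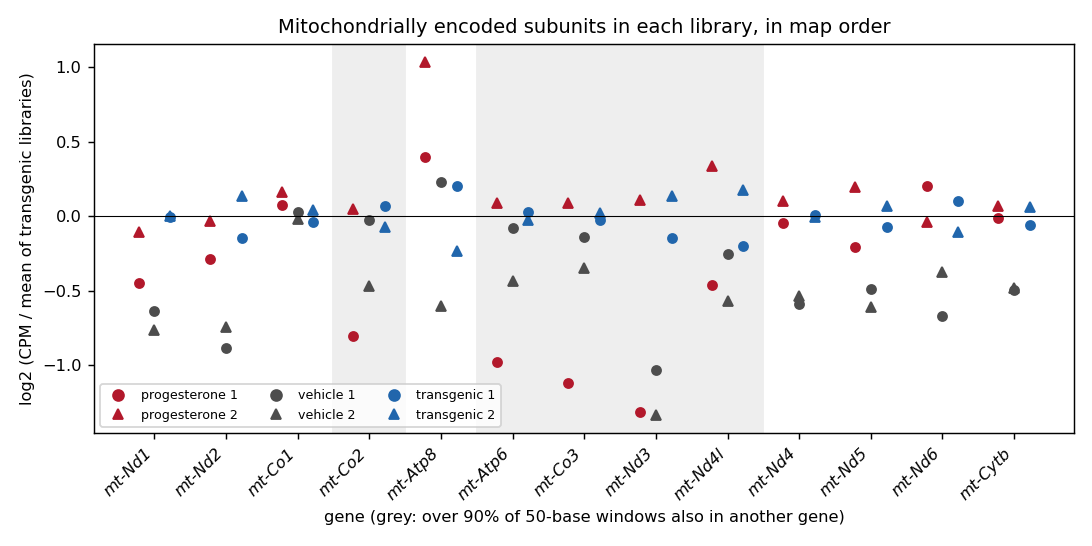
CPM of each mitochondrially encoded subunit in each of the 6 libraries, as log2 of its ratio to the mean of the 2 transgenic libraries, with genes in map order along the mitochondrial genome and columns from left to right for progesterone, vehicle and transgenic tumours. For mt-Nd1, mt-Nd2, mt-Nd4, mt-Nd5, mt-Nd6 and mt-Cytb both vehicle libraries are below the other 4; mt-Co1 stays close to 0 in all 6 libraries; the shaded genes are those with over 90% of windows shared with another gene.

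Vehicle against transgenic tumours compares hosts with ovariectomy and vehicle with hosts for which neither is labelled. The mitochondrial genes had a median log2 fold change of -0.49, with 12 of 13 negative, against -0.01 over all genes tested. The vehicle libraries were all below the transgenic ones for 10 of the 13 and above them for 0, where 17.7% of all genes were lower and 17.9% higher in this way. An unadjusted p under 0.05 was found for 6 of 13, all lower, against 2.89% of all genes lower and 2.68% higher. mt-Nd2 had a log2 fold change of -0.81 ± 0.19 (SE; edgeR unadjusted p = 0.0031, adjusted p = 0.81). mt-Nd1 stood at -0.70 ± 0.18 and mt-Nd4 at -0.56 ± 0.16 (SE; edgeR adjusted p = 0.81 for each). mt-Nd5, mt-Nd6 and mt-Cytb had log2 fold changes of -0.55, -0.52 and -0.49. mt-Co1 had 0.01 ± 0.15, and its sign turns under another scaling. DESeq2, which called 0.517% of the genes it tested, called 3 of these as lower, namely mt-Nd2 (adjusted p = 0.0101), mt-Nd4 (adjusted p = 0.0344) and mt-Nd1 (adjusted p = 0.0429). It called no nuclear subunit.

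The 5 genes with over 90% of windows shared did not all follow this pattern. mt-Nd3 had 2.86 and 7.65 CPM in progesterone tumours, 3.46 and 2.81 CPM in vehicle tumours and 6.41 and 7.80 CPM in transgenic tumours, so its progesterone libraries stood on both sides. mt-Co2 had 48.1 and 86.8 CPM in progesterone tumours, 82.5 and 60.5 CPM in vehicle tumours and 87.9 and 79.9 CPM in transgenic tumours. mt-Co3 had 30.5 and 70.7 CPM in progesterone tumours, 60.4 and 52.3 CPM in vehicle tumours and 65.4 and 67.6 CPM in transgenic tumours. For mt-Co2 and mt-Co3 progesterone library 1 was the lowest of the 6. mt-Atp6 ranged from 27.4 to 57.3 CPM and mt-Nd4l from 1.43 to 2.69 CPM. Summed over the 5 genes, the level was 110 and 225 CPM in progesterone tumours, 199 and 157 CPM in vehicle tumours and 217 and 211 CPM in transgenic tumours, with progesterone library 1 the lowest of all. Without these 5 genes the median log2 fold change of the mitochondrial class was -0.53 for vehicle against transgenic tumours, a choice made after their values were seen. mt-Atp8, at 0.424 to 1.32 CPM, was too low for its order to be read.

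Progesterone against vehicle tumours compares the hormone with its carrier in ovariectomized hosts, and uses the same vehicle libraries as the comparison above. The mitochondrial genes had a median log2 fold change of 0.52, with 10 of 13 positive, against 0.01 over all genes. The progesterone libraries were all above the vehicle ones for 8 of 13 and below them for 0, where 18.5% of all genes were higher and 17.8% lower in this way. An unadjusted p under 0.05 was found for 6 of 13, all higher, against 2.77% of all genes higher and 2.52% lower. mt-Nd2 had a log2 fold change of 0.66 ± 0.19 and mt-Nd4 of 0.59 ± 0.16 (SE; edgeR unadjusted p = 0.0090 and 0.0068, adjusted p = 0.93 for each). mt-Nd6, mt-Nd5, mt-Cytb and mt-Nd1 had 0.60, 0.56, 0.52 and 0.43. mt-Co1 stood at 0.11 ± 0.15 (SE; edgeR adjusted p = 0.999). DESeq2, which called 0.579% of the genes it tested here, called mt-Nd4 as higher (adjusted p = 0.0140) and no other subunit. The median rested in part on progesterone library 2: without it the median log2 fold change of the class was 0.25.

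Progesterone against transgenic tumours sets ovariectomy with progesterone against neither, and shares its libraries with both comparisons above. The mitochondrial genes had a median log2 fold change of -0.01, with 6 of 13 positive. The progesterone libraries were all above the transgenic ones for 2 of 13, mt-Co1 and mt-Atp8, and below them for 1, mt-Nd1, where 14.5% of all genes were higher and 14.5% lower in this way. No mitochondrial gene had an unadjusted p under 0.05, against 2.73% of all genes higher and 2.54% lower. mt-Nd1 had a log2 fold change of -0.27 ± 0.18 (SE; edgeR adjusted p = 0.94), mt-Nd2 of -0.15, and mt-Nd4, mt-Nd5 and mt-Cytb between 0.01 and 0.03. DESeq2 called 0.282% of the genes it tested and none of the subunits. A p that misses the threshold does not show that the groups were alike.

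Because mt-Co1 comes from the same mitochondrial transcripts as its neighbours, ratios within a library show how the messages stood to one another without any scaling between libraries. The sum of mt-Nd1, mt-Nd2, mt-Nd4, mt-Nd5 and mt-Cytb was 1.03 and 1.13 times mt-Co1 in progesterone tumours, 0.800 and 0.819 times in vehicle tumours and 1.22 and 1.23 times in transgenic tumours. The 3 groups did not overlap. The difference in the log2 of this ratio was -0.60 for vehicle against transgenic, 0.41 for progesterone against vehicle and -0.18 for progesterone against transgenic tumours. mt-Cytb alone was 0.441 and 0.439 times mt-Co1 in progesterone tumours, 0.324 and 0.339 times in vehicle tumours and 0.461 and 0.475 times in transgenic tumours. These genes were picked for the ratio after their levels were known, so the ratio is a description. An exact permutation test of 2 against 2 libraries cannot give a two-sided p below 0.333, and no p is given for sums or ratios.

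All 13 mitochondrial genes together held 1.40% and 1.65% of counts in progesterone tumours, 1.18% and 1.14% in vehicle tumours and 1.43% and 1.53% in transgenic tumours. Relative to the summed CPM of all nuclear subunits, the mitochondrial sum was 1.84 and 2.47 in progesterone tumours, 1.99 and 1.71 in vehicle tumours and 2.10 and 2.25 in transgenic tumours. This ratio overlapped between progesterone and vehicle tumours. mt-Co1 alone, set against the nuclear sum, was 0.894 and 1.14 in progesterone tumours, 1.09 and 0.926 in vehicle tumours and 0.931 and 0.989 in transgenic tumours, so it overlapped in every comparison. Set against the nuclear sum, the order of groups seen in the mitochondrial complex I and III messages was thus not seen in mt-Co1.

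**Figure D3:**
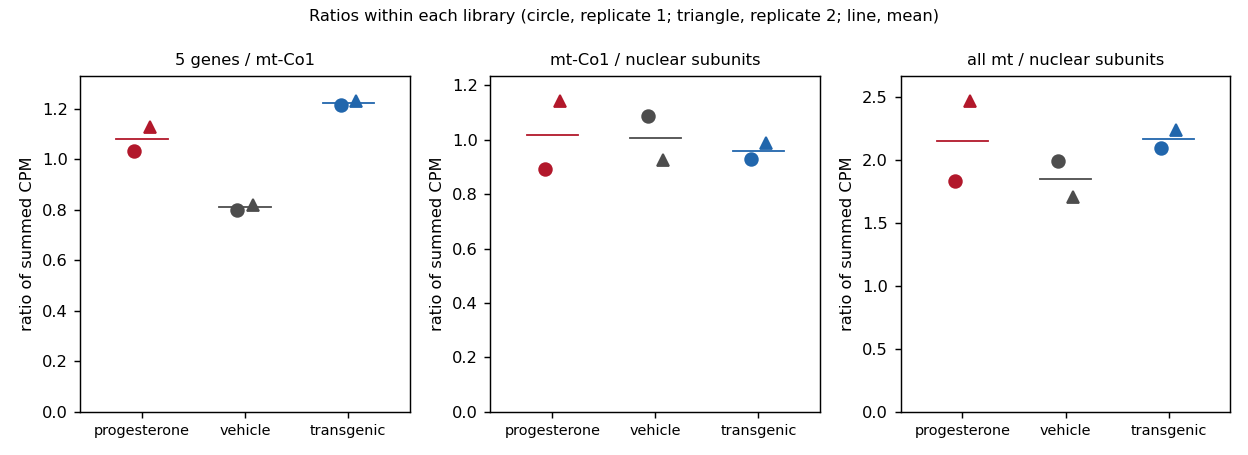
Ratios of summed CPM within each library for progesterone, vehicle and transgenic tumours (points, libraries; lines, means of 2). Left, mt-Nd1, mt-Nd2, mt-Nd4, mt-Nd5 and mt-Cytb over mt-Co1, which separates the 3 groups; middle, mt-Co1 over all nuclear subunits; right, all mitochondrial over all nuclear subunits, where progesterone and vehicle tumours overlap.

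Of the nuclear subunits, 0 of 78 were called by edgeR or DESeq2 in any comparison. Their median log2 fold change was -0.06 for vehicle against transgenic tumours, with 23 positive and 55 negative, 0.14 for progesterone against vehicle tumours, with 66 positive and 12 negative, and 0.08 for progesterone against transgenic tumours, with 55 positive and 23 negative. Vehicle libraries were all above the transgenic ones for 6 of 78 and all below for 18. Progesterone libraries were all above the vehicle ones for 16 and below for 1, and all above the transgenic ones for 18 and below for 4. These counts stand beside the shares of all genes given above, from 14.5% to 18.5% in each direction. An unadjusted p under 0.05 was found for 0 of 78 in the first 2 comparisons and for 1, Uqcrc1, in the third.

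The nuclear medians depended on single libraries, and were no larger than the differences inside a group. Within the vehicle group, 68 of 78 nuclear subunits were higher in library 2 than in library 1, against 51.5% of all genes, with a median log2 difference of 0.18 between those libraries. Within the progesterone group, 60 of 78 were higher in library 1, against 49.8% of all genes, and within the transgenic group 49 of 78 were higher in library 1, against 48.5%. The mitochondrial genes went the other way in the progesterone group, with 12 of 13 higher in library 2. Without vehicle library 1 the nuclear median for vehicle against transgenic tumours was 0.04, and without progesterone library 1 that for progesterone against vehicle tumours was 0.01.

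**Figure D4:**
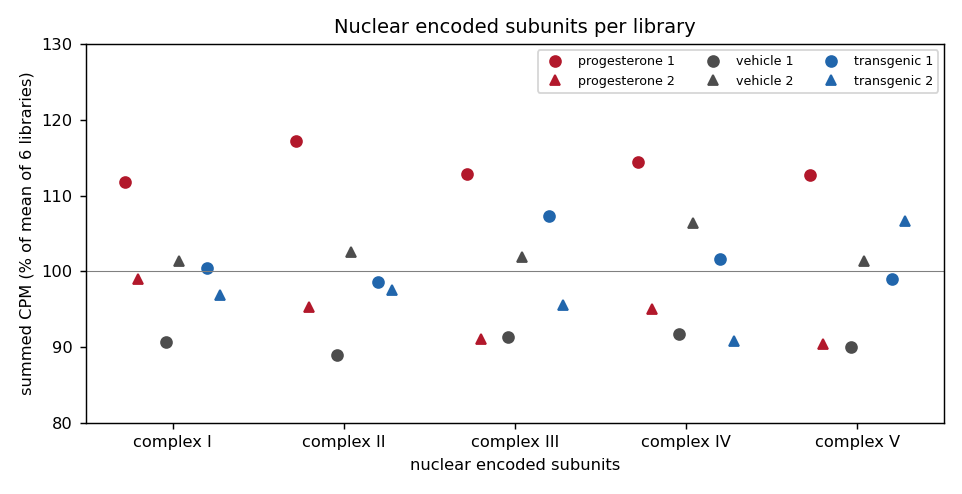
Summed CPM of the nuclear encoded subunits of each complex in each library, in percent of the mean of the 6 libraries (vertical axis from 80%), for progesterone, vehicle and transgenic tumours from left to right. Progesterone library 1 is highest in each complex, and the 2 libraries of the progesterone and of the vehicle group differ by more than the groups do.

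By complex, the summed nuclear levels overlapped in every comparison. Complex I, whose nuclear subunits include the electron-carrying core and the supernumerary shell, summed to 2000 and 1771 CPM in progesterone tumours, 1621 and 1815 CPM in vehicle tumours and 1797 and 1734 CPM in transgenic tumours. Complex II summed to 677 and 550 CPM in progesterone tumours, 513 and 592 CPM in vehicle tumours and 569 and 563 CPM in transgenic tumours. Complex III summed to 581 and 469 CPM in progesterone tumours, 470 and 525 CPM in vehicle tumours and 552 and 492 CPM in transgenic tumours. In each, progesterone library 1 was the highest and the libraries of the groups lay among each other. Complex IV summed to 1250 and 1038 CPM in progesterone tumours, 1002 and 1161 CPM in vehicle tumours and 1110 and 992 CPM in transgenic tumours. Complex V summed to 3126 and 2508 CPM in progesterone tumours, 2496 and 2813 CPM in vehicle tumours and 2748 and 2957 CPM in transgenic tumours. For progesterone against vehicle tumours the median log2 fold changes by complex were 0.15, 0.12, 0.09, 0.11 and 0.10 for complexes I to V.

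**Figure D5:**
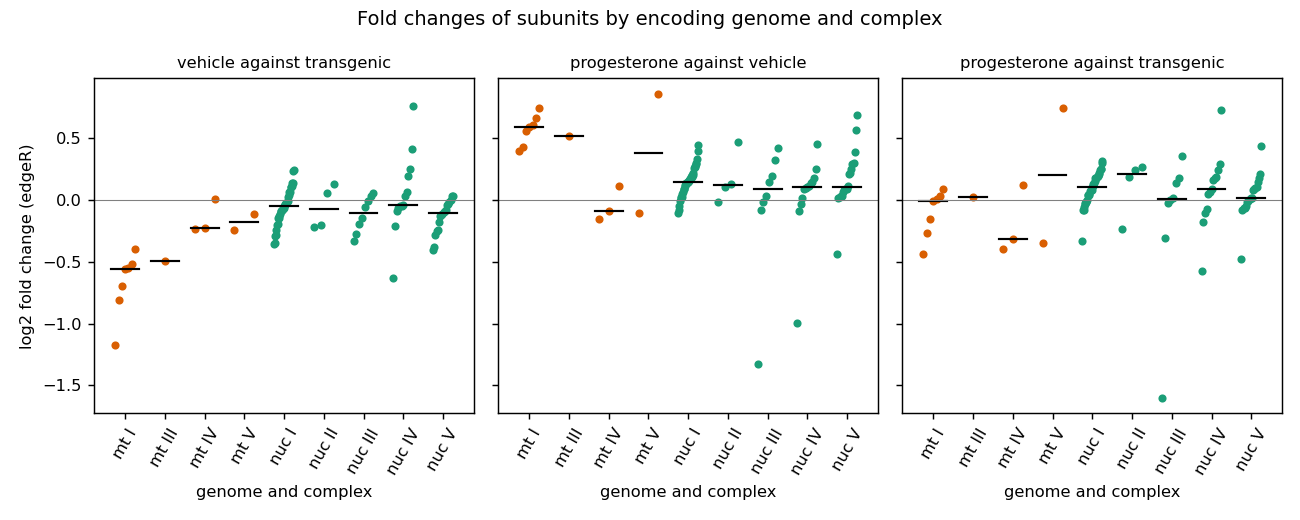
Log2 fold change (edgeR) of each subunit that passed the filter, by encoding genome (mt, mitochondrial; nuc, nuclear) and complex, in the 3 comparisons; bars are medians. Mitochondrial complex I and III genes lie below 0 for vehicle against transgenic and above 0 for progesterone against vehicle tumours, the nuclear subunits centre near 0, and the lowest points of complex III in the middle and right panels are Uqcrc1.

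In complex V, Atp5j2 and Atp5k had the smallest p for vehicle against transgenic and for progesterone against vehicle tumours. Atp5j2, the f subunit of the membrane part of the ATP synthase, had 97.4 and 92.8 CPM in progesterone tumours, 62.6 and 82.8 CPM in vehicle tumours and 91.2 and 101 CPM in transgenic tumours. Its log2 fold change was -0.40 ± 0.18 for vehicle against transgenic (edgeR adjusted p = 0.87) and 0.39 ± 0.18 for progesterone against vehicle (SE; edgeR adjusted p = 0.94). Atp5k, the e subunit, which helps ATP synthase pair into dimers, had 33.7 and 24.3 CPM in progesterone tumours, 17.5 and 21.8 CPM in vehicle tumours and 26.9 and 24.3 CPM in transgenic tumours. Its log2 fold change was -0.38 ± 0.25 for vehicle against transgenic and 0.56 ± 0.25 for progesterone against vehicle (SE; edgeR adjusted p = 0.92 and 0.94). For both genes the vehicle libraries were the lowest, and neither passed the test.

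In complex I the smallest p values belonged to Ndufv2, an iron-sulfur subunit, and Ndufa4 for vehicle against transgenic tumours, and to Ndufa3 and Ndufa4 for progesterone against vehicle tumours. Ndufv2 had 79.9 and 88.2 CPM in progesterone tumours, 71.6 and 73.1 CPM in vehicle tumours and 88.8 and 88.7 CPM in transgenic tumours. Its fold change for vehicle against transgenic was -0.29 ± 0.14 on the log2 scale (SE; edgeR adjusted p = 0.88). Ndufa4 had 92.8 and 105 CPM in progesterone tumours, 67.6 and 89.7 CPM in vehicle tumours and 95.2 and 105 CPM in transgenic tumours. Its log2 fold changes were -0.35 and 0.33 in the 2 comparisons. Ndufa3, a small accessory subunit, had 34.4 and 30.2 CPM in progesterone tumours, 22.7 and 26.3 CPM in vehicle tumours and 28.9 and 27.5 CPM in transgenic tumours. Ndufs1 and Ndufb3 had the smallest p for progesterone against transgenic tumours, with log2 fold changes of 0.30 and 0.25.

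Complex II has 4 subunits, all named. Sdha, the flavoprotein that oxidizes succinate, had 264 and 241 CPM in progesterone tumours, 215 and 245 CPM in vehicle tumours and 238 and 205 CPM in transgenic tumours. Sdhb, its iron-sulfur partner, had 136 and 84.8 CPM in progesterone tumours, 65.1 and 94.9 CPM in vehicle tumours and 76.0 and 108 CPM in transgenic tumours. Its coefficient of variation over the 6 libraries was 26.9%, against 9.09% for Sdha, 10.9% for Sdhc and 11.0% for Sdhd. Its log2 fold change for progesterone against vehicle tumours was 0.47 ± 0.30 (SE; edgeR adjusted p = 0.999). The membrane anchors differed in direction. Sdhc had 144 and 115 CPM in progesterone tumours, 119 and 120 CPM in vehicle tumours and 114 and 105 CPM in transgenic tumours. Sdhd had 133 and 110 CPM in progesterone tumours, 114 and 132 CPM in vehicle tumours and 141 and 145 CPM in transgenic tumours. For progesterone against transgenic tumours the log2 fold change was 0.24 ± 0.16 for Sdhc and -0.23 ± 0.16 for Sdhd (SE; edgeR adjusted p = 0.94 and 0.95).

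In complex III the most variable member was Uqcrc1, with 4.21 and 4.96 CPM in progesterone tumours, 18.0 and 4.93 CPM in vehicle tumours and 17.1 and 10.8 CPM in transgenic tumours. The progesterone libraries were the lower ones, but the second vehicle library stood between them. The log2 fold change was -1.33 ± 0.59 for progesterone against vehicle and -1.60 ± 0.59 for progesterone against transgenic tumours (SE; edgeR adjusted p = 0.94 and 0.91). Without vehicle library 1 the value for progesterone against vehicle was -0.11. Atp5a1, low for its class like Uqcrc1, had 25.7 and 20.4 CPM in progesterone tumours, 37.9 and 24.4 CPM in vehicle tumours and 19.2 and 45.1 CPM in transgenic tumours, with no order of groups. Uqcrc2, the partner of Uqcrc1, had a coefficient of variation of 4.43% over the 6 libraries, the second smallest among the nuclear subunits after Atp5mpl at 3.87%. Uqcr11, a small subunit, had 57.9 and 38.2 CPM in progesterone tumours, 32.9 and 39.0 CPM in vehicle tumours and 40.0 and 34.8 CPM in transgenic tumours. For vehicle against transgenic tumours the smallest p values were those of Uqcrq and Uqcr10, with log2 fold changes of -0.33 and -0.19.

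Complex IV has tissue-specific forms of several subunits. The widely used forms dominated: Cox6a1 had 101 and 73.5 CPM in progesterone tumours, 70.3 and 94.1 CPM in vehicle tumours and 80.3 and 89.3 CPM in transgenic tumours, and its muscle counterpart Cox6a2 stayed at or below 0.271 CPM. Cox7a2 had 67.8 and 70.1 CPM in progesterone tumours, 55.4 and 81.4 CPM in vehicle tumours and 78.9 and 66.4 CPM in transgenic tumours, and the muscle form Cox7a1 had 0.548 to 1.11 CPM over the 6 libraries. Markers of skeletal muscle, 12 of 12 in the table and 6 past the filter, summed to 8.50 and 6.83 CPM in progesterone tumours, 12.8 and 8.22 CPM in vehicle tumours and 11.4 and 17.7 CPM in transgenic tumours. Cox6b1 had 82.9 to 108 CPM, while the testis form Cox6b2 had 0.193 to 0.892 CPM. Cox7c, a small structural subunit, had 115 and 109 CPM in progesterone tumours, 97.5 and 111 CPM in vehicle tumours and 107 and 75.1 CPM in transgenic tumours. Cox8a had 141 to 182 CPM and Cox7b 58.6 to 86.7 CPM. Cox4i2, the lung and hypoxia form of subunit 4, had 0.424 to 1.07 CPM. Cox4i1 and Cox8b were not among the rows found, so the complex IV values leave them out, and Cox4i2 was not compared with Cox4i1. Cox7a2l, which helps join complexes III and IV into supercomplexes, had 262 and 184 CPM in progesterone tumours, 231 and 243 CPM in vehicle tumours and 199 and 199.5 CPM in transgenic tumours. Vehicle against transgenic tumours gave 0.25 ± 0.20 on the log2 scale (SE; edgeR adjusted p = 0.94).

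Ndufa4l2, a hypoxia-induced relative of Ndufa4 that is also a pericyte marker, had 0.773 and 4.55 CPM in progesterone tumours, 2.23 and 2.39 CPM in vehicle tumours and 1.96 and 2.87 CPM in transgenic tumours. The pericyte gene Rgs5 had 19.8 and 84.4 CPM in progesterone tumours, 22.6 and 27.5 CPM in vehicle tumours and 20.3 and 36.9 CPM in transgenic tumours, high and low in the same progesterone libraries. The part of pericytes in the Ndufa4l2 values was not tested. The 3 genes for the c ring of the ATP synthase, which encode one mature protein, had ranges of 37.5 to 57.8 CPM for Atp5g1, 121 to 154 CPM for Atp5g2 and 164 to 228 CPM for Atp5g3. Of the 78 nuclear subunits, 66 had a coefficient of variation below 20% over the 6 libraries. The 12 above it were Ndufa2, Ndufb2, Ndufa4l2, Sdhb, Uqcrc1, Uqcr11, Cox4i2, Cox6b2, Cox7a1, Atp5a1, Atp5k and the second Atp5o.

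Promoter windows from the RefSeq table (GRCm38.p6, 250 bases before to 50 after the gene's start) were found for 66 of the 81 nuclear subunit symbols. GCATGCGC, the letters of an NRF1 site, were in 15.2% of them on either strand, against 3.05% of all 27025 genes with a window. AAGATGGC, read by YY1, was in 15.2% against 3.19%, and CCGGAAG, the letters of an ETS family site such as that of GABPA, was in 25.8% against 9.93%. ACGTG, the core of the hypoxia response element, was in 24.2% against 21.8%. The genes set against the subunits were not limited to those of the count table or to expressed ones, so the sets are not matched. The windows of Atp5j2 (chr5:145191492-145191791, minus strand) and Atp5k (chr5:108434350-108434649, minus strand) are shown because these were the nuclear complex V members nearest to the threshold. Those of Ndufv2 and Ndufa4, the complex I members with the smallest p for vehicle against transgenic tumours, held none of the letters searched. Capitals mark AAGATGGC in Atp5j2, and in Atp5k the NRF1 letters, which overlap on both strands, and the ETS letters on the reverse strand.
Atp5j2: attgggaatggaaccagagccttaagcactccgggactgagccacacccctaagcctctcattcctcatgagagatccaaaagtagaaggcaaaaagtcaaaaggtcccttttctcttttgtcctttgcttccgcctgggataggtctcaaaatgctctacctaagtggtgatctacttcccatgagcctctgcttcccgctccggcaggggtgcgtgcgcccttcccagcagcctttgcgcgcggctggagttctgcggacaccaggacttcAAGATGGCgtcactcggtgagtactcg
Atp5k: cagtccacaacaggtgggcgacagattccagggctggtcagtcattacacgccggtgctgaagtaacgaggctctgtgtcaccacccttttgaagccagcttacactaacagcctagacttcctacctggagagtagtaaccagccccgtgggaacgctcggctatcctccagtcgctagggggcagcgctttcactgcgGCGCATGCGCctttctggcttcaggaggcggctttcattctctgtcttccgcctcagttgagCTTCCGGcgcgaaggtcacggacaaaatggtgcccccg
The letters are matches in sequence and were not tested as binding sites. Among the mRNAs of the factors themselves, Nrf1 was at 64.9 and 78.4 CPM in progesterone tumours, 76.9 and 70.2 CPM in vehicle tumours and 72.0 and 75.1 CPM in transgenic tumours, and the groups overlapped. Gabpb1, a subunit of the GABP factor, had 35.2 and 45.1 CPM in progesterone tumours, 42.3 and 40.9 CPM in vehicle tumours and 49.6 and 47.6 CPM in transgenic tumours, with both transgenic libraries the highest. Of the 10 regulators listed, 0 were called by edgeR or DESeq2 in any comparison.

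Genes that read, process and translate the mitochondrial messages were examined as lists beside the subunits, and none of their members was called by edgeR. For vehicle against transgenic tumours the mitochondrial ribosome, with 75 members tested, had a median log2 fold change of -0.18, with 66 negative and the groups apart and lower for 34, where 17.7% of all genes were. For progesterone against vehicle tumours its median was 0.16, with 63 positive and the groups apart and higher for 20, where 18.5% of all genes were. Its summed CPM was 3293 and 2747 in progesterone, 2675 and 2873 in vehicle and 3213 and 2947.5 in transgenic tumours. Progesterone library 2 was thus below vehicle library 2, and the sums of those 2 groups overlapped. Mrpl18, a protein of the large mitochondrial ribosomal subunit, had 79.4 and 68.0 CPM in progesterone tumours, 51.5 and 59.5 CPM in vehicle tumours and 79.8 and 78.1 CPM in transgenic tumours. Its log2 fold change was -0.51 for vehicle against transgenic and 0.41 for progesterone against vehicle tumours (edgeR adjusted p = 0.82 and 0.94). The 26 genes of mitochondrial transcription and RNA handling had medians of -0.05 and 0.10 in those comparisons, and the 46 assembly factors -0.11 and 0.10. Tfam, which packages mitochondrial DNA and starts its transcription, had 48.1 and 49.7 CPM in progesterone tumours, 44.4 and 46.6 CPM in vehicle tumours and 57.1 and 54.5 CPM in transgenic tumours. Vehicle against transgenic tumours gave -0.29 on the log2 scale. Lrpprc, which stabilizes most mitochondrial messages, had 139 and 132 CPM in progesterone tumours, 111 and 112 CPM in vehicle tumours and 114 and 150 CPM in transgenic tumours.

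Cytochrome c (Cycs), the carrier between complexes III and IV, had 92.6 and 80.1 CPM in progesterone tumours, 66.4 and 78.4 CPM in vehicle tumours and 102 and 97.0 CPM in transgenic tumours. Its log2 fold change for vehicle against transgenic tumours was -0.46 (edgeR unadjusted p = 0.0231, adjusted p = 0.83). The carrier and coenzyme Q list as a whole, 14 genes, had medians of -0.01 and 0.13 for vehicle against transgenic and progesterone against vehicle tumours. The 13 citric acid cycle genes had -0.10 and 0.04.

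Hypoxia response genes ran opposite to the 6 mitochondrial messages. For vehicle against transgenic tumours 15 of 15 were positive, with a median log2 fold change of 0.63. For progesterone against vehicle tumours 15 of 15 were negative, with a median of -0.77. These 2 comparisons use the same vehicle libraries, and the list was chosen with earlier results of these data known. For progesterone against transgenic tumours 7 were positive and 8 negative, with a median of -0.02. In 11 of 15 both vehicle libraries were above the other 4, against 6.87% of all genes. Summed over the 15 genes, the CPM was 4533 and 3849 in progesterone, 6384 and 6106 in vehicle and 5020 and 3832 in transgenic tumours. edgeR called 0 of them, and DESeq2 called 2 in the first comparison, Slc2a1 and Adm, and 3 in the second, among them Egln3 (adjusted p = 1.63e-06) and Egln1 (adjusted p = 0.0040), where it called 0.517% and 0.579% of all genes it tested. The part of this difference in the mitochondrial values was not tested.

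Cell type markers also varied between libraries, in some lists widely inside a group, with 0 of these lists' members called by edgeR. DESeq2 called the endothelial genes Vwf (adjusted p = 2.02e-07) and Cldn5 (adjusted p = 0.0043) as lower for progesterone against vehicle tumours. Of the 8 endothelial markers tested, 6 had a negative and 2 a positive log2 fold change there. The groups were apart and lower for 2 of the 8, where 17.8% of all genes were. For progesterone against transgenic tumours DESeq2 called Cldn5 as lower (adjusted p = 0.0043) and the pericyte gene Cspg4 as higher (adjusted p = 0.0093). Of the 9 pericyte and smooth muscle markers tested, 5 had a positive and 4 a negative log2 fold change in that comparison. Of the 7 T cell markers counted, 6 were tested. Both vehicle libraries were below the other 4 for 5 of these 6, against 7.33% of all genes. Each marker was at no more than 0.848 CPM in either vehicle library, so this order rested on few reads. Cd3d was at 0.103 and 0.0530 CPM in vehicle tumours. Cd2 was at 0.48028 CPM in vehicle library 1, just under the 0.48155 CPM of transgenic library 1. The T cell markers summed to 5.87 and 4.59 CPM in progesterone tumours, 1.85 and 1.22 CPM in vehicle tumours and 2.82 and 11.6 CPM in transgenic tumours. Cd4 and Cd8a were at 0 in vehicle library 2. Macrophage and monocyte markers were higher in both progesterone than in both vehicle libraries for 10 of 10, against 18.5% of all genes, with sums of 2655 and 2300 CPM in progesterone tumours, 1370 and 1672 CPM in vehicle tumours and 1095 and 2449 CPM in transgenic tumours. Endothelial markers, 8 tested, summed to 112 and 258 CPM in progesterone tumours, 254 and 253 CPM in vehicle tumours and 247 and 301 CPM in transgenic tumours. Pericyte and smooth muscle markers, 9 tested of 10, summed to 93.9 and 262 CPM in progesterone tumours, 115 and 171 CPM in vehicle tumours and 121 and 198 CPM in transgenic tumours. Red blood cell genes, 6 tested, summed to 86.1 and 167 CPM in progesterone tumours, 2501 and 300 CPM in vehicle tumours and 2826 and 65.4 CPM in transgenic tumours, and adipocyte markers, 1 tested of 7, to between 6.65 and 31.4 CPM. The part of the cell makeup in the subunit values was not tested.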

How the data were processed

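The authors deposited raw counts of reads, 1 per gene and tumour library, without normalization. HISAT2, HTSeq, DESeq and the build GRCm38.p6 appear in the submitters' processing notes. Their versions, roles and strand settings are not stated there. Per the labels' protocols, libraries were made from messenger RNA with a directional kit. From these counts, CPM (scaled by TMM), RPKM (CPM per kilobase of merged exons, GENCODE vM21) and all tests were computed in R 4.3.3. Genes were kept with filterByExpr in edgeR 4.0.16 (13632 genes), and a quasi-likelihood model (glmQLFit, glmQLFTest) used all 6 libraries, a mean for each group, 3 residual degrees of freedom and Benjamini-Hochberg adjustment over all genes kept. Alternatives were DESeq2 1.42.0, limma-voom (limma 3.58.1), other scalings, no filter, fits of 2 groups, a replicate block and leaving out each library. The edgeR fit was also run on simulated data with changes larger than any seen in the subunits. That run does not show whether changes of the subunits' size would be called. Medians over lists carry no test. A limit of 3 counts for a count of 0 corresponds to 0.103 to 0.159 CPM and covers counting error only.

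The members and gene lists were chosen with earlier results of these data known. Named genes were all mitochondrial subunits, the Sdh genes, tissue-specific forms and their partners, per complex the 2 nuclear members with the smallest unadjusted p in each comparison and the highest and lowest level, and per list up to 2 members; Mrpl18, Tfam, Lrpprc, Cycs, Rgs5, Gabpb1, Vwf, Cldn5, Cspg4, Slc2a1, Adm, Egln1 and Egln3 are from those lists. Nrf1, Uqcrc2, Atp5mpl, Ndufv1 and Ndufs3 were named after their values were seen. Ndufs3, Uqcrc1 and Atp5a1 have few counts for their class, and overlapping or near-identical genes could share reads.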

Additional observations from a re-analysis of the deposited data

How the results depend on the processing

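Counts of called genes depended on the test and the filter. With no filter on low counts edgeR called 12, 92 and 28 genes for vehicle against transgenic, progesterone against vehicle and progesterone against transgenic tumours, and DESeq2 called 63, 77 and 47, with 3 subunits in the first comparison, 1 in the second and 0 in the third; the main test called 0 of each, and other settings called 0 subunits. Leaving out each library in turn moved the mitochondrial median log2 fold change between -0.55 and -0.43, 0.25 and 0.59, and -0.28 and 0.086 in the 3 comparisons, and the nuclear median between -0.17 and 0.044, 0.0074 and 0.24, and -0.056 and 0.19. It moved the log2 ratio of mitochondrial to nuclear sums between -0.34 and -0.12, -0.01 and 0.42, and -0.24 and 0.19. The nuclear medians for vehicle and for progesterone against transgenic tumours, the ratio for progesterone against vehicle and against transgenic, and the mitochondrial median for progesterone against transgenic changed sign with 1 library left out; the cause was not tested. Without the 5 genes with over 90% shared windows, the mitochondrial medians were -0.53, 0.58 and 0.03. Scalings, DESeq2, limma-voom and fits of 2 groups kept the mitochondrial medians within -0.51 and -0.49, 0.51 and 0.56, and -0.05 and 0.02.

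Single genes that changed sign were mt-Co1 for vehicle against transgenic (-0.011 with upper quartile scaling, -0.000125 with only the 2 groups, and -0.031 to 0.050 with 1 library left out), Uqcr10 in the same comparison (-0.44 to 0.024 with 1 library left out), Cox6b2 for progesterone against vehicle (-1.65 to 0.40), and Atp5a1 and Atp5g2 for progesterone against transgenic (-0.97 to 0.26 and -0.0011 to 0.31). The replicate numbers did not pair the libraries: deviations of same-numbered libraries from their group means correlated at 0.08 (vehicle and transgenic), -0.13 (progesterone and vehicle) and -0.17 (progesterone and transgenic). With the replicate number as a block, 0 genes and 0 subunits were called, the mitochondrial medians were -0.49, 0.52 and -0.03, and the nuclear medians were -0.05, 0.12 and 0.08. With 2 libraries a group, only large and even differences could pass the test, and genes at under 1 CPM are limited by depth.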
